A study of Mus musculus with 33 samples.

Results

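The 55 G2 and mitosis genes described here encode the machinery that takes a cell from the end of DNA replication through chromosome segregation to cell separation. They were chosen by name and looked up by gene symbol in a table of 21671 genes, and all 55 were found. By role they comprise 5 genes of the CDK1 switch, 4 further mitotic kinases, 4 subunits of the chromosomal passenger complex, 4 genes of the spindle checkpoint, 7 of the centromere and kinetochore, 10 spindle motors and microtubule proteins, 7 genes of the central spindle and cytokinesis, 5 of anaphase onset and mitotic exit, 7 of chromosome structure, and the 2 transcription factors Foxm1 and Mybl2.

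As background, entry into mitosis is driven by the kinase CDK1 bound to cyclin B, which the CDC25 phosphatases switch on and the kinases WEE1 and MYT1 hold off. The anaphase-promoting complex with CDC20 then destroys cyclin B and securin, which frees separase to cut the cohesin that holds sister chromatids together. Most of these genes are silent in resting cells, where the DREAM complex (a MuvB core with p107 or p130 and E2F4 or E2F5) sits on their promoters. In cycling cells the MuvB core joins B-MYB and FOXM1 and the genes are expressed in G2 and mitosis, through a promoter element called CHR and often CCAAT boxes bound by NF-Y. Adult hepatocytes rarely divide, and many are polyploid because cells can copy their DNA without separating.

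The series measured total RNA by sequencing in livers and liver nodules of C57BL/6 mice. In 20 livers, Cre recombinase had been delivered by AAV8-TBG-CRE, a virus that uses the hepatocyte promoter TBG, at 1e+11 particles into mice 6 to 8 weeks old, and the liver was taken on day 4. The mice were wild type (AAV_WT, 5 livers), carried beta-cat Ex3, a β-catenin allele whose exon 3 Cre removes (AAV_EX3, 5), carried R26-lslMYC, a MYC transgene behind a stop that Cre removes (AAV_MYC, 5), or carried both alleles (AAV_MYC_EX3, 5). All of these groups received the virus, the AAV_WT mice included. A second arm held nodules of mice with Alb-CreERT2, a Cre driven by the albumin promoter and activated by 4-OHT, together with R26-lslMYC (Tum_MYC, 3 nodules) or with R26-lslMYC and beta-cat Ex3 (Tum_MYC_EX3, 3). Its controls were 7 livers of wild-type mice taken on day 4 after injected 4-OHT (TAM_WT). The labels give no age for the second arm, no treatment for the nodules and no statement that libraries of a group came from separate mice, so p-values measure the spread between these libraries. The 2 arms were normalized on different scales and are compared only within themselves.

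Promoters of these genes are shown first because most of these genes share an element there. RefSeq (GRCm38.p6) gave a promoter, 250 bases before to 50 after the start site, for 44 of the 55 genes. The CHR letters TTTGAA were present on either strand in 32 of these 44 genes (72.7%) against 17.9% of the 32851 promoters in the table. CCAAT was likewise in 32 genes (72.7%) against 37.4% of all promoters, and 28 genes (63.6%) held both against 6.95%. CCAAT occurred at least 2 times in 21 genes (47.7%) against 11.7%. The E-box CACGTG, the letters that MYC with MAX prefers, was in 3 genes (6.82%), close to the 7.15% of all promoters. Matches of different motifs can overlap only at their ends. The median CHR match lay 15 bases before the start site and the median CCAAT match 66 bases before it. A match of letters is a description, not a site of binding.

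The 4 promoters printed come from the 25 genes reported in full below. Top2a, Cdk1 and Mki67 had the most matches in the whole window. Espl1, with 3, tied with Aurka, Cdc20, Cenpf and Smc2 and is shown because its matches were of all 3 motifs. Each is the 200 bases before the RefSeq start site in GRCm38.p6, written 5′ to 3′ in the direction of the gene, with CHR, CCAAT and CACGTG matches of either strand in capitals. Top2a lies at chr11:99024190-99024389 on the minus strand, Cdk1 at chr10:69352913-69353112 on the minus strand, Mki67 at chr7:135716380-135716579 on the minus strand and Espl1 at chr15:102296093-102296292 on the plus strand.
Top2a: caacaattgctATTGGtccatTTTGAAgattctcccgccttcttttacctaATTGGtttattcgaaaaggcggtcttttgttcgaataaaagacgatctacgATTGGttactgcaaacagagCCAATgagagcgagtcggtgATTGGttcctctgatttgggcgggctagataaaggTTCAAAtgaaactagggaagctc
Cdk1: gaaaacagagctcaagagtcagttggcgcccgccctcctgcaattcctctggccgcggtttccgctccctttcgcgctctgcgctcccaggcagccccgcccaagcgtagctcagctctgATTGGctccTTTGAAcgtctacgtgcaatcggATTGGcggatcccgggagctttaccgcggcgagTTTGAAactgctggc
Mki67: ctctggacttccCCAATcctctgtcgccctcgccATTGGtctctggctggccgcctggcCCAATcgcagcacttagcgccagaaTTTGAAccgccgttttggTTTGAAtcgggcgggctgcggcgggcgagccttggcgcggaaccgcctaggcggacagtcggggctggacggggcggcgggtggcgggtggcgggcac
Espl1: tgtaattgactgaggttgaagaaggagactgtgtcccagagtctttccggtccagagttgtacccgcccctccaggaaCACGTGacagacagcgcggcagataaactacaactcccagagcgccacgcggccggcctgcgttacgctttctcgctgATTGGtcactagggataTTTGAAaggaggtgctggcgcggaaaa
Top2a showed 2 CHR and 5 CCAAT matches, Cdk1 showed 2 and 2, and Mki67 showed 2 and 3. Espl1 showed 1 of each and 1 E-box, and was the only promoter of the 4 with an E-box.

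Levels are in RPKM, which divides the reads of a gene by its length and by the size of the library. Reads counted in genes came to between 3.75 and 7.31 M per AAV liver and to between 6.65 and 9.82 M per library of the second arm. At this depth 1 of the 55 genes, Cdc25c, had at most 3 reads in every AAV_WT liver and was at 0 in 2 of them, so no fold is given for it there. Other genes also rested on few control reads. Per AAV_WT liver Ndc80 had 1 to 4 reads, Ttk 1 to 7, Bub1 1 to 8, Aurkb 2 to 9, Foxm1 2 to 13 and Ckap2 6 to 17. Further examples were Mybl2 at 5 to 9, Espl1 at 3 to 15, Cdc20 at 7 to 20, Ccnb1 at 1 to 21 and Tpx2 at 1 to 24. The size of such ratios to AAV_WT is imprecise. Hepatocyte markers were abundant throughout, with albumin at 244 to 303 RPKM in AAV_WT livers and 203 to 293 in AAV_MYC livers. The highest gene of each library stood at 220 to 396 RPKM in AAV livers and 42.9 to 67.5 in the second arm. Hnf4a, another hepatocyte marker, read 141 to 195 RPKM in AAV_WT livers, not far below albumin. Values of the most abundant genes thus seem compressed, and albumin is no measure of hepatocyte content. The highest of the 55 genes reached 92.7 and 29.6 RPKM in these arms, so their ratios may be understated too. The β-catenin target Axin2 stood at 2.73 to 4.3 RPKM in AAV_WT and 0.513 to 6.99 in AAV_MYC livers, against 10.6 to 24.9 in AAV_EX3 and 7.49 to 24.3 in AAV_MYC_EX3 livers, and at 0.0946 to 0.66 in Tum_MYC against 7.63 to 11.3 in Tum_MYC_EX3 nodules. The Myc row overlapped between AAV_WT (0.748 to 4.11 RPKM) and AAV_MYC livers (3.12 to 4.81); the labels do not say which species' sequence the transgene carries, so it does not check them. The nucleolar gene Ncl, a known MYC target, stood at 15.3 to 24.2 RPKM in AAV_WT and 41.2 to 98.3 in AAV_MYC livers. These check genes were picked with their values known.

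Several libraries stood apart and are named where they touch a result. AAV_MYC liver 5 held both the female transcript Xist (86.1 RPKM) and the Y-linked Ddx3y (4.74 RPKM), and was classed as female because Xist was the higher. Sex is not in the labels and was read from these transcripts. The skin keratins Krt5, Krt14 and Krt17 summed to more than 1 RPKM in 3 of 5 AAV_WT, 3 of 5 AAV_EX3, 1 of 5 AAV_MYC and 3 of 5 AAV_MYC_EX3 livers. Among TAM_WT livers, 4 carry titles numbered S14 and 3 carry titles numbered S15, and the labels do not say what these numbers mean.

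In AAV_WT livers the 55 genes were low. The median gene stood at 0.955, 0.582, 0.884, 1.16 and 1.22 RPKM in livers 1 to 5. The highest were Pttg1, which encodes securin, at 11.3 ± 1.56 RPKM (SD, n = 5), and the kinetochore gene Spc24 at 10.0 ± 3.46 RPKM. These 2 means differed by less than the spread of Spc24. The lowest with reads in every liver was the kinetochore gene Ndc80 at 0.178 ± 0.0995 RPKM.

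Almost the whole set was higher in AAV_MYC than in AAV_WT livers on day 4. The median gene stood at 22.3, 12.4, 14.9, 16.1 and 7.31 RPKM in AAV_MYC livers 1 to 5, and the median ratio of group means to AAV_WT was 14.1. Of the 55 genes, 53 were called higher by limma on log2(RPKM + 1), with Benjamini-Hochberg adjustment over all 20263 genes and a threshold of 0.05, against 10.6% of all genes. None was called lower, against 2.88% of all genes. In 54 genes every AAV_MYC liver was above every AAV_WT liver, against 7.53% of all genes. By group means 40 genes had a ratio above 10, a count given without the share of all genes. It includes Cdc25c, whose own fold is not given, and other genes with few control reads, so it is imprecise. The median difference in log2(RPKM + 1) was 2.61, beside 0.02 over all genes; the added 1 makes the differences of low genes smaller than their ratios. In this bulk RNA more dividing cells and more RNA per cell cannot be told apart.

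The largest differences were those of Ccnb1 at 4.64 (SE 0.66) and Cdc20 at 4.53 (SE 0.56) on the log2(RPKM + 1) scale, with limma adjusted p of 8.15e-05 and 2.79e-05. The smallest were those of Pttg1 at 0.40 (SE 0.14), adjusted p = 0.0588, and Mybl2 at 0.51 (SE 0.24), adjusted p = 0.186, neither of which was called. Pttg1 read 12.3, 10.6, 11.9, 8.99 and 12.9 RPKM in AAV_WT and 15.5, 15.7, 17.8, 14.2 and 13 RPKM in AAV_MYC livers, without overlap but only 1.35-fold apart by group means. Its call depended on the settings: the adjusted p was 0.0455 among genes reaching 1 RPKM in 3 libraries and 0.0383 with a sex covariate. Among the genes called, the largest adjusted p was 0.00140.

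**Figure D1:**
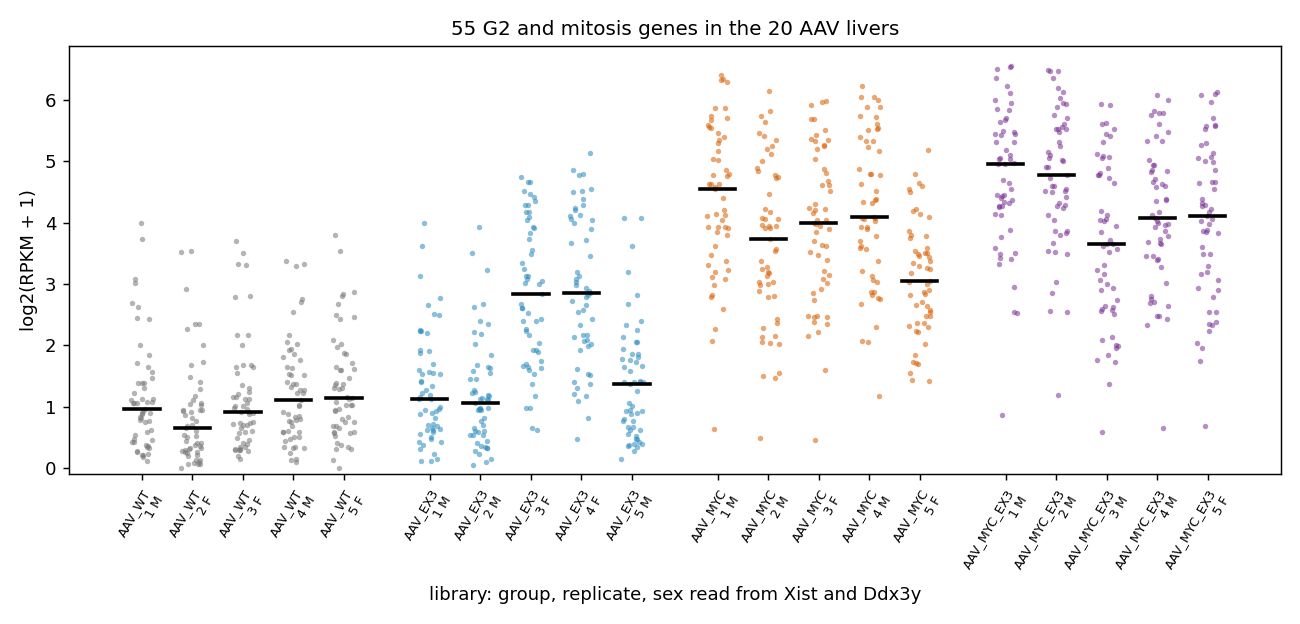
Each point is 1 of the 55 genes in 1 AAV liver, in log2(RPKM + 1), and the black bar is the median gene of that liver. The F or M under each replicate is the sex read from Xist and Ddx3y, and AAV_MYC liver 5, marked F, held both. AAV_EX3 livers 3 and 4 lie between the wild-type and MYC livers, and AAV_MYC liver 5 is the lowest of its group.

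All 5 genes of the CDK1 switch rose with MYC, with a median difference of 3.73 (log2). Values of single genes are given in the order of livers 1 to 5. Ccnb1 read 1.12, 0.0969, 0.641, 1.86 and 2.07 RPKM in AAV_WT livers and 79.8, 48.8, 62.2, 73.5 and 16.1 RPKM in AAV_MYC livers. With Ex3, Ccnb1 read 0.962, 1.21, 24.3, 26.6 and 1.63 RPKM in AAV_EX3 livers and 91.6, 87.9, 59.6, 53.9 and 69.1 RPKM in AAV_MYC_EX3 livers. Ccnb1 encodes cyclin B1, and its AAV_MYC mean was 48.4 times that of AAV_WT, with liver 5 the lowest of its group. Ccna2 read 1.78, 1.04, 1.47, 2.12 and 2.68 RPKM in AAV_WT livers and 57.2, 37, 50.8, 62.5 and 22.4 RPKM in AAV_MYC livers. With Ex3, Ccna2 read 1.65, 1.35, 18.6, 21.7 and 2.53 RPKM in AAV_EX3 livers and 63.1, 64.5, 45, 52.8 and 46.8 RPKM in AAV_MYC_EX3 livers. Ccna2, the cyclin A gene that acts from S phase into early mitosis, was 25.3 times as high with MYC. Cdk1 read 1.62, 0.628, 0.634, 1.87 and 1.12 RPKM in AAV_WT livers and 31.9, 17.6, 27.1, 45 and 13.5 RPKM in AAV_MYC livers. With Ex3, Cdk1 read 1.69, 1.1, 9.13, 12.1 and 2.32 RPKM in AAV_EX3 livers and 35.3, 34.4, 26.5, 31.6 and 30.9 RPKM in AAV_MYC_EX3 livers. For Cdk1, the kinase itself, the ratio of means was 23.

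Each of the 4 further mitotic kinases and the 4 passenger complex genes rose with MYC, with median differences of 2.24 and 2.46. Plk1 read 0.394, 0.761, 0.978, 0.61 and 0.774 RPKM in AAV_WT livers and 14.3, 7.75, 6.56, 7.19 and 10.6 RPKM in AAV_MYC livers. With Ex3, Plk1 read 1.18, 0.981, 2.1, 3.51 and 0.602 RPKM in AAV_EX3 livers and 21, 23.1, 5.2, 8.73 and 4.84 RPKM in AAV_MYC_EX3 livers. Plk1, which promotes mitotic entry and spindle assembly, rose 13.2-fold by means, and here AAV_MYC liver 5 was not the lowest. Aurka read 4.44, 3.03, 3, 2.78 and 4.51 RPKM in AAV_WT livers and 34.7, 14.4, 14.8, 16.1 and 8.62 RPKM in AAV_MYC livers. With Ex3, Aurka read 4.73, 4.3, 7.73, 8.17 and 2.83 RPKM in AAV_EX3 livers and 42.2, 45.1, 11.5, 19.4 and 15.8 RPKM in AAV_MYC_EX3 livers. Aurka, the centrosome kinase, rose 4.99-fold from a higher level in wild-type liver. Aurkb read 0.759, 0.229, 0.674, 0.42 and 1.05 RPKM in AAV_WT livers and 23.6, 10.9, 14.4, 15.9 and 9.92 RPKM in AAV_MYC livers. With Ex3, Aurkb read 1.33, 0.929, 4.37, 4.86 and 1.09 RPKM in AAV_EX3 livers and 39, 36.9, 6.68, 22.9 and 15.3 RPKM in AAV_MYC_EX3 livers. The gene for the passenger complex kinase, Aurkb, rose 23.8-fold. Birc5 read 1.09, 1.64, 1.01, 1.51 and 1.47 RPKM in AAV_WT livers and 22.3, 15.9, 17.7, 19.8 and 8.79 RPKM in AAV_MYC livers. With Ex3, Birc5 read 1.9, 1.74, 7.25, 7.45 and 1.66 RPKM in AAV_EX3 livers and 24.9, 25.4, 15.7, 19.9 and 17.7 RPKM in AAV_MYC_EX3 livers. Birc5 encodes survivin, which docks the complex at centromeres, and rose 12.6-fold. Incenp read 0.69, 0.834, 2.14, 1.59 and 1.48 RPKM in AAV_WT livers and 9.43, 5.92, 7.47, 8.32 and 5.51 RPKM in AAV_MYC livers. With Ex3, Incenp read 1.96, 1.28, 2.79, 3.2 and 1.03 RPKM in AAV_EX3 livers and 16.7, 15.5, 2.89, 10.0 and 6.62 RPKM in AAV_MYC_EX3 livers. The scaffold gene Incenp rose less, 5.43-fold.

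The 4 spindle checkpoint genes, which delay anaphase until chromosomes are attached, and the 7 centromere and kinetochore genes all rose with MYC, with median differences of 2.64 and 2.22. Bub1 read 0.268, 0.0463, 0.272, 0.255 and 0.33 RPKM in AAV_WT livers and 8.95, 3.13, 5.68, 15.8 and 2.28 RPKM in AAV_MYC livers. With Ex3, Bub1 read 0.115, 0.0341, 2.23, 1.32 and 0.293 RPKM in AAV_EX3 livers and 10.3, 13.3, 5.06, 9.59 and 5.91 RPKM in AAV_MYC_EX3 livers. Bub1 encodes a checkpoint kinase, and AAV_WT liver 2 was the lowest of its group. Mad2l1 read 5.19, 4.09, 3.48, 4.81 and 6.12 RPKM in AAV_WT livers and 46.2, 27.5, 40.2, 65.1 and 17.2 RPKM in AAV_MYC livers. With Ex3, Mad2l1 read 4.66, 5.18, 13.2, 14.9 and 3.78 RPKM in AAV_EX3 livers and 42.7, 46, 41.5, 39.3 and 37.4 RPKM in AAV_MYC_EX3 livers. Mad2l1, which encodes the MAD2 inhibitor of CDC20, was already at several RPKM in wild-type liver and rose 8.29-fold. Ndc80 read 0.338, 0.204, 0.15, 0.0934 and 0.104 RPKM in AAV_WT livers and 5.01, 1.95, 4.55, 5.8 and 6.45 RPKM in AAV_MYC livers. With Ex3, Ndc80 read 0.0844, 0.451, 2.05, 1.6 and 0.323 RPKM in AAV_EX3 livers and 9.06, 7.14, 3.03, 5.53 and 4.81 RPKM in AAV_MYC_EX3 livers. Ndc80 encodes the microtubule-binding arm of the kinetochore, and AAV_MYC liver 5 was the highest of its group. Cenpf read 0.501, 0.222, 0.489, 0.703 and 0.903 RPKM in AAV_WT livers and 16.7, 9.32, 15.5, 11.3 and 3.65 RPKM in AAV_MYC livers. With Ex3, Cenpf read 0.551, 0.52, 7.09, 6.68 and 0.702 RPKM in AAV_EX3 livers and 22.5, 21.9, 12.1, 11.6 and 18.3 RPKM in AAV_MYC_EX3 livers. Cenpf, a large kinetochore protein gene used as a marker of G2, rose 20.0-fold.

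All 10 spindle genes and all 7 central spindle genes rose with MYC, with median differences of 3.17 and 2.87. Kif11 read 1.08, 0.699, 1.2, 1.41 and 2.04 RPKM in AAV_WT livers and 28, 14.5, 24.7, 36.4 and 10.3 RPKM in AAV_MYC livers. With Ex3, Kif11 read 1.43, 1.27, 7.43, 7.77 and 1.67 RPKM in AAV_EX3 livers and 38.8, 38.7, 16.5, 27.8 and 24 RPKM in AAV_MYC_EX3 livers. Kif11 encodes the motor that pushes spindle poles apart and rose 17.7-fold. Tpx2 read 0.379, 0.0508, 0.336, 0.885 and 1.24 RPKM in AAV_WT livers and 23, 14.1, 14.9, 14.3 and 5.28 RPKM in AAV_MYC livers. With Ex3, Tpx2 read 0.631, 0.449, 5.1, 5.95 and 0.589 RPKM in AAV_EX3 livers and 32.3, 31.5, 10.9, 17.1 and 13.8 RPKM in AAV_MYC_EX3 livers. Tpx2, the activator of Aurora A on microtubules, rose 24.8-fold. Ckap2 read 0.786, 0.518, 0.57, 1.34 and 0.614 RPKM in AAV_WT livers and 52.4, 39.6, 50.3, 47.7 and 12.8 RPKM in AAV_MYC livers. With Ex3, Ckap2 read 0.643, 1.33, 18.4, 22.3 and 1.64 RPKM in AAV_EX3 livers and 68.4, 68.8, 48.1, 39.3 and 67 RPKM in AAV_MYC_EX3 livers. Ckap2, a spindle microtubule protein gene, had the highest ratio of the set at 52.9. Kif20a read 1.19, 0.287, 1.18, 1.16 and 1.05 RPKM in AAV_WT livers and 38.1, 33.7, 28.3, 26.6 and 8.11 RPKM in AAV_MYC livers. With Ex3, Kif20a read 1.24, 1.74, 12.2, 15.5 and 1.58 RPKM in AAV_EX3 livers and 44, 44.8, 27, 25.3 and 32.3 RPKM in AAV_MYC_EX3 livers. The motor gene Kif20a, needed for cytokinesis, rose 27.7-fold. Racgap1 read 1.47, 1.26, 1.31, 1.9 and 2.03 RPKM in AAV_WT livers and 31.5, 21.2, 17.4, 19.1 and 8.53 RPKM in AAV_MYC livers. With Ex3, Racgap1 read 1.53, 1.42, 7.73, 6.89 and 1.64 RPKM in AAV_EX3 livers and 42.6, 43.7, 14.4, 23.2 and 19.9 RPKM in AAV_MYC_EX3 livers. Racgap1, part of the centralspindlin complex that places the cleavage furrow, rose 12.3-fold. The smallest differences in these groups were those of Kif15, at 1.31, and Kif23, at 1.55, both called.

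Of the 5 genes of anaphase onset and mitotic exit, 4 rose with MYC and Pttg1 was the exception. Cdc20 read 0.723, 0.611, 1.03, 0.8 and 1.78 RPKM in AAV_WT livers and 83.3, 55.6, 44.5, 44.6 and 17.7 RPKM in AAV_MYC livers. With Ex3, Cdc20 read 2.75, 0.964, 21.1, 19.9 and 2.39 RPKM in AAV_EX3 livers and 92.7, 88.5, 42.6, 47.9 and 47 RPKM in AAV_MYC_EX3 livers. Cdc20, the activator of the anaphase-promoting complex, rose 49.8-fold. Espl1 read 0.167, 0.101, 0.222, 0.277 and 0.512 RPKM in AAV_WT livers and 6.89, 3.08, 3.44, 3.95 and 2.59 RPKM in AAV_MYC livers. With Ex3, Espl1 read 0.306, 0.173, 0.977, 0.774 and 0.319 RPKM in AAV_EX3 livers and 11, 10.6, 2.39, 4.61 and 2.89 RPKM in AAV_MYC_EX3 livers. Espl1 encodes separase, the protease that securin holds back, and rose 15.6-fold while Pttg1 differed by 1.35-fold.

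The 7 genes of chromosome structure rose with MYC, with a median difference of 2.35. Mki67 read 1.6, 0.936, 3.48, 3.51 and 4.67 RPKM in AAV_WT livers and 76.8, 52.5, 61.3, 58 and 26.7 RPKM in AAV_MYC livers. With Ex3, Mki67 read 3.71, 3.05, 24.3, 28 and 4.25 RPKM in AAV_EX3 livers and 89.8, 87.2, 47.5, 66.6 and 61.3 RPKM in AAV_MYC_EX3 livers. Mki67, the gene of the proliferation antigen Ki-67, rose 19.4-fold. Top2a read 1.17, 0.927, 1.57, 2.84 and 2.95 RPKM in AAV_WT livers and 46.9, 25.6, 42.2, 64.7 and 35.3 RPKM in AAV_MYC livers. With Ex3, Top2a read 2.04, 2.14, 17.1, 17.5 and 3.4 RPKM in AAV_EX3 livers and 60.4, 59.8, 26.4, 63.1 and 46.7 RPKM in AAV_MYC_EX3 livers. Top2a, which untangles sister DNA, rose 22.7-fold. Smc2 read 2.13, 1.16, 2.14, 2.51 and 3.07 RPKM in AAV_WT livers and 16.2, 8.45, 18.7, 26.4 and 11 RPKM in AAV_MYC livers. With Ex3, Smc2 read 2.24, 1.92, 6.98, 6.25 and 2.64 RPKM in AAV_EX3 livers and 20.2, 21.7, 13.4, 24.2 and 18.5 RPKM in AAV_MYC_EX3 livers. Smc2 is a core subunit shared by both condensins and rose 7.34-fold. Ncapg read 2.61, 2.34, 1.08, 3.09 and 2.27 RPKM in AAV_WT livers and 14, 7.14, 13.3, 23.8 and 9.11 RPKM in AAV_MYC livers. With Ex3, Ncapg read 2.79, 2.6, 5.07, 4.96 and 4.01 RPKM in AAV_EX3 livers and 19, 20.4, 11.6, 14.3 and 13.3 RPKM in AAV_MYC_EX3 livers. Ncapg, a condensin I subunit gene, rose 5.92-fold.

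The 2 transcription factor genes parted. Foxm1 read 0.0851, 0.257, 0.264, 0.424 and 0.68 RPKM in AAV_WT livers and 5.88, 3.85, 4.12, 3.18 and 3.08 RPKM in AAV_MYC livers. With Ex3, Foxm1 read 0.34, 0.114, 0.98, 1.66 and 0.271 RPKM in AAV_EX3 livers and 9.69, 10.3, 2.32, 5.21 and 3.71 RPKM in AAV_MYC_EX3 livers. Foxm1 rose 11.8-fold, with a difference of 1.89 (SE 0.30) and a limma adjusted p of 2.46e-04. Mybl2 read 0.351, 0.303, 0.401, 0.5 and 0.493 RPKM in AAV_WT livers and 0.565, 0.4, 0.369, 1.25 and 3.71 RPKM in AAV_MYC livers. With Ex3, Mybl2 read 0.351, 0.268, 0.547, 0.391 and 0.447 RPKM in AAV_EX3 livers and 0.822, 1.29, 0.504, 0.583 and 0.617 RPKM in AAV_MYC_EX3 livers. Mybl2, the gene of B-MYB, overlapped between AAV_MYC and AAV_WT livers and was the only gene of the set to do so. Its highest AAV_MYC value was in liver 5, at 5.75 times the mean of the other 4.

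AAV_MYC liver 5 was the lowest of its group in 46 of the 55 genes. Its lowest values relative to the mean of the other 4 livers were those of Hmmr, a spindle assembly gene, at 0.178 and Nusap1, a microtubule-bundling gene, at 0.205. It was the highest of the 5 livers for Ndc80 and Mybl2. Without this liver limma called 54 genes higher in AAV_MYC than in AAV_WT. Its levels of Ncl (41.2 RPKM) and of Cad, a pyrimidine synthesis gene and MYC target (22.5), were above every AAV_WT liver. Axin2, at 6.99 RPKM, was also the highest of the AAV_MYC livers and above the AAV_WT range of 2.73 to 4.3. It lay just below the AAV_MYC_EX3 range of 7.49 to 24.3. Lgr5, another β-catenin target, at 3.52 RPKM, was the highest of the AAV_MYC livers too but lay within the AAV_WT range of 1.81 to 6.72. The part played by the mixed Xist and Ddx3y signal was not tested.

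With both alleles the set stood a little higher than with MYC alone, but no gene was called between them. The median gene read 29.9, 26.3, 11.5, 15.8 and 16.2 RPKM in AAV_MYC_EX3 livers 1 to 5, and liver 3 was the lowest of its group in 42 genes. AAV_MYC_EX3 livers 1 and 2 and AAV_MYC liver 1, whose median gene read 22.3 RPKM, carry titles from the same run of numbers. No other liver of either group does, and the labels do not say what the numbers mean. Their part in the difference was not tested. Against AAV_WT, 54 of the 55 genes were called higher, against 11.2% of all genes, and all 55 showed no overlap, against 9.33%. The median ratio of means was 19.9. Ccnb1 at 5.15 (SE 0.66) and Ckap2 at 5.05 (SE 0.60) had the largest differences, and Mybl2 at 0.31 (SE 0.24), limma adjusted p = 0.463, and Pttg1 at 0.48 (SE 0.14), adjusted p = 0.0217, the smallest. The Pttg1 call was lost when libraries were rescaled by their median ratio, with an adjusted p of 0.0777, and among keratin-free livers, with 0.229.

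Against AAV_MYC, 54 of the 55 genes had a difference above 0, with a median of 0.40 (log2) and a median ratio of means of 1.31. The genes moved together from library to library, so the 54 signs are not separate results. None was called, against 0.0494% of all genes called higher, and 1 gene had an unadjusted p under 0.05. The largest differences were those of Cenpf, at 0.66 (95% interval -0.31 to 1.63), and Dlgap5, a spindle assembly gene, at 0.65 (0.01 to 1.29). Those of Mybl2, at -0.20 (-0.69 to 0.30), and Kif23, at 0.02 (-0.43 to 0.47), were the smallest. For Ccnb1 the interval of the difference ran from -0.87 to 1.90, so a change of either sign is within the spread. Among keratin-free livers the median difference was 1.01. These are AAV_MYC_EX3 livers 1 and 2, the highest of their group by median gene, and AAV_MYC livers 1, 2, 3 and 5. AAV_MYC liver 5 was the lowest of its group, so the value rests on few and unlike livers.

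With Ex3 alone no gene of the set passed the test, and the 5 livers were split. None was called higher in AAV_EX3 than in AAV_WT, against 0.079% of all genes. Of the 55, 23 had an unadjusted limma p under 0.05, a count given without the share of all genes. The genes moved together from library to library, so these are not 23 separate results. The median difference was 0.75 (log2). The smallest adjusted p was 0.494. The largest differences were those of Cdca3, grouped here with anaphase onset and mitotic exit, at 1.90 (SE 0.58) and Cdc20 at 1.74 (SE 0.56). The smallest were those of Mybl2 at -0.01 and Kif15 at 0.19. The groups did not overlap in 3 genes, against 0.75% of all genes. These were Nek2, a centrosome kinase gene, with Kif20a and Birc5.

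The median gene read 1.19, 1.1, 6.16, 6.25 and 1.58 RPKM in AAV_EX3 livers 1 to 5. Livers 3 and 4 were thus several times above the other 3. They exceeded every AAV_WT liver in 55 and 53 genes, where 9.89% and 10.7% of all genes did so. Livers 1, 2 and 5 exceeded every AAV_WT liver in 12, 8 and 21 genes, where 18.1%, 18.5% and 9.65% of all genes did so, so that livers 1 and 2 were near the share of all genes and liver 5 above it. In 53 of the 55 genes both livers 3 and 4 were above the other 3 AAV_EX3 livers, against 10.7% of all genes, a description since the pair was picked for its values. The exceptions were Pttg1 and Mybl2. The mean of the pair over the mean of the other 3 had a median of 5.02, and reached 20.0 for Ccnb1 and 16.9 for Ckap2.

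Livers 3 and 4 still lay below every AAV_MYC liver in 36 and 32 genes. Ccnb1, for example, read 24.3 and 26.6 RPKM in them, above AAV_MYC liver 5 but below the other 4. Axin2 did not separate the pair, at 19.7 and 16.2 RPKM within the range of 10.6 to 24.9 of the 5 livers. Lgr5, another β-catenin target, was highest of the group in the pair, at 14.9 and 17.1 RPKM against a group median of 11.9. The part of β-catenin signalling in the split was not tested. Ncl, at 22.9 and 18.8 RPKM, lay within the AAV_WT range. Both livers were female and both carried keratin transcripts, while the other 3 were male. Of those, liver 5 had the highest keratin sum of the group, 14.7 RPKM, and a low median gene. The neutrophil markers of livers 3 and 4 summed to 41.6 and 102 RPKM, above the 14.8, 16.7 and 30.01 RPKM of livers 1, 2 and 5, though within the AAV_WT range of 10.2 to 191. Their stellate and fibroblast markers, at 213 and 201 RPKM, were likewise the highest of the group, beside 171, 194 and 192 in livers 1, 2 and 5 and 187 to 201 in AAV_WT. Their erythroid markers, at 47.2 and 71.1 RPKM, were the lowest, beside 120, 109 and 112 and an AAV_WT range of 33.1 to 162. Macrophage (360 and 422 RPKM), endothelial (149 and 194), lymphocyte (8.88 and 12.6) and cholangiocyte sums (98.8 and 66.9) did not separate the pair. The part of these cells in the split was not tested. In AAV_EX3, sex and this split cannot be told apart.

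The females of AAV_EX3 are the pair picked for its values, so a comparison of the sexes restates the split and is no test of sex. As a description, the median difference of Ex3 against WT over the 55 genes was 1.65 (log2) among females and 0.08 among males. That of the 8 neutrophil markers was 0.64 among females and -0.90 among males. The Ex3 effect in females minus that in males had a median of 1.55 over the 55 genes, all above 0, and of 1.68 over the neutrophil markers, 7 of 8 above 0. No median over all genes is set beside these, and no other cell type list is given for this contrast. The erythroid sums of the pair, 47.2 and 71.1 RPKM, were the lowest of AAV_EX3. A link between the 2 lists was not tested. In that limma contrast, added after the split was seen, 4 genes of the set passed the threshold, against 0.074% of all genes, namely Ccnb1, Ckap2, Ccna2 and Cdk1. Leaving out AAV_EX3 liver 1, 3 or 4, or AAV_WT liver 2 or 3, took the number to 0. It was 1 without AAV_EX3 liver 5 and 2 without AAV_EX3 liver 2 or AAV_WT liver 5.

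Without livers 3 and 4 the median difference of AAV_EX3 from AAV_WT was 0.11. The set was higher again with MYC added to Ex3: 53 of the 55 genes were called higher in AAV_MYC_EX3 than in AAV_EX3, against 10.3% of all genes, with or without livers 3 and 4. The largest differences were those of Ccnb1, 3.57 (SE 0.66), and Ckap2, 3.42 (SE 0.60), while Pttg1, 0.22, and Mybl2, 0.32, were not called. Among keratin-bearing livers, which include 3 and 4, the count was 24. The interaction of MYC and Ex3 was called for none of the genes, against 0% of all genes, and for 0 genes at an unadjusted p under 0.05. Its median was -0.31, and it ranged from -1.47 for Cdca3 and -1.29 for Cdc20 to 0.16 for Espl1 and 0.21 for Dlgap5. Without AAV_EX3 livers 3 and 4 the median turned to 0.28.

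**Figure D2:**
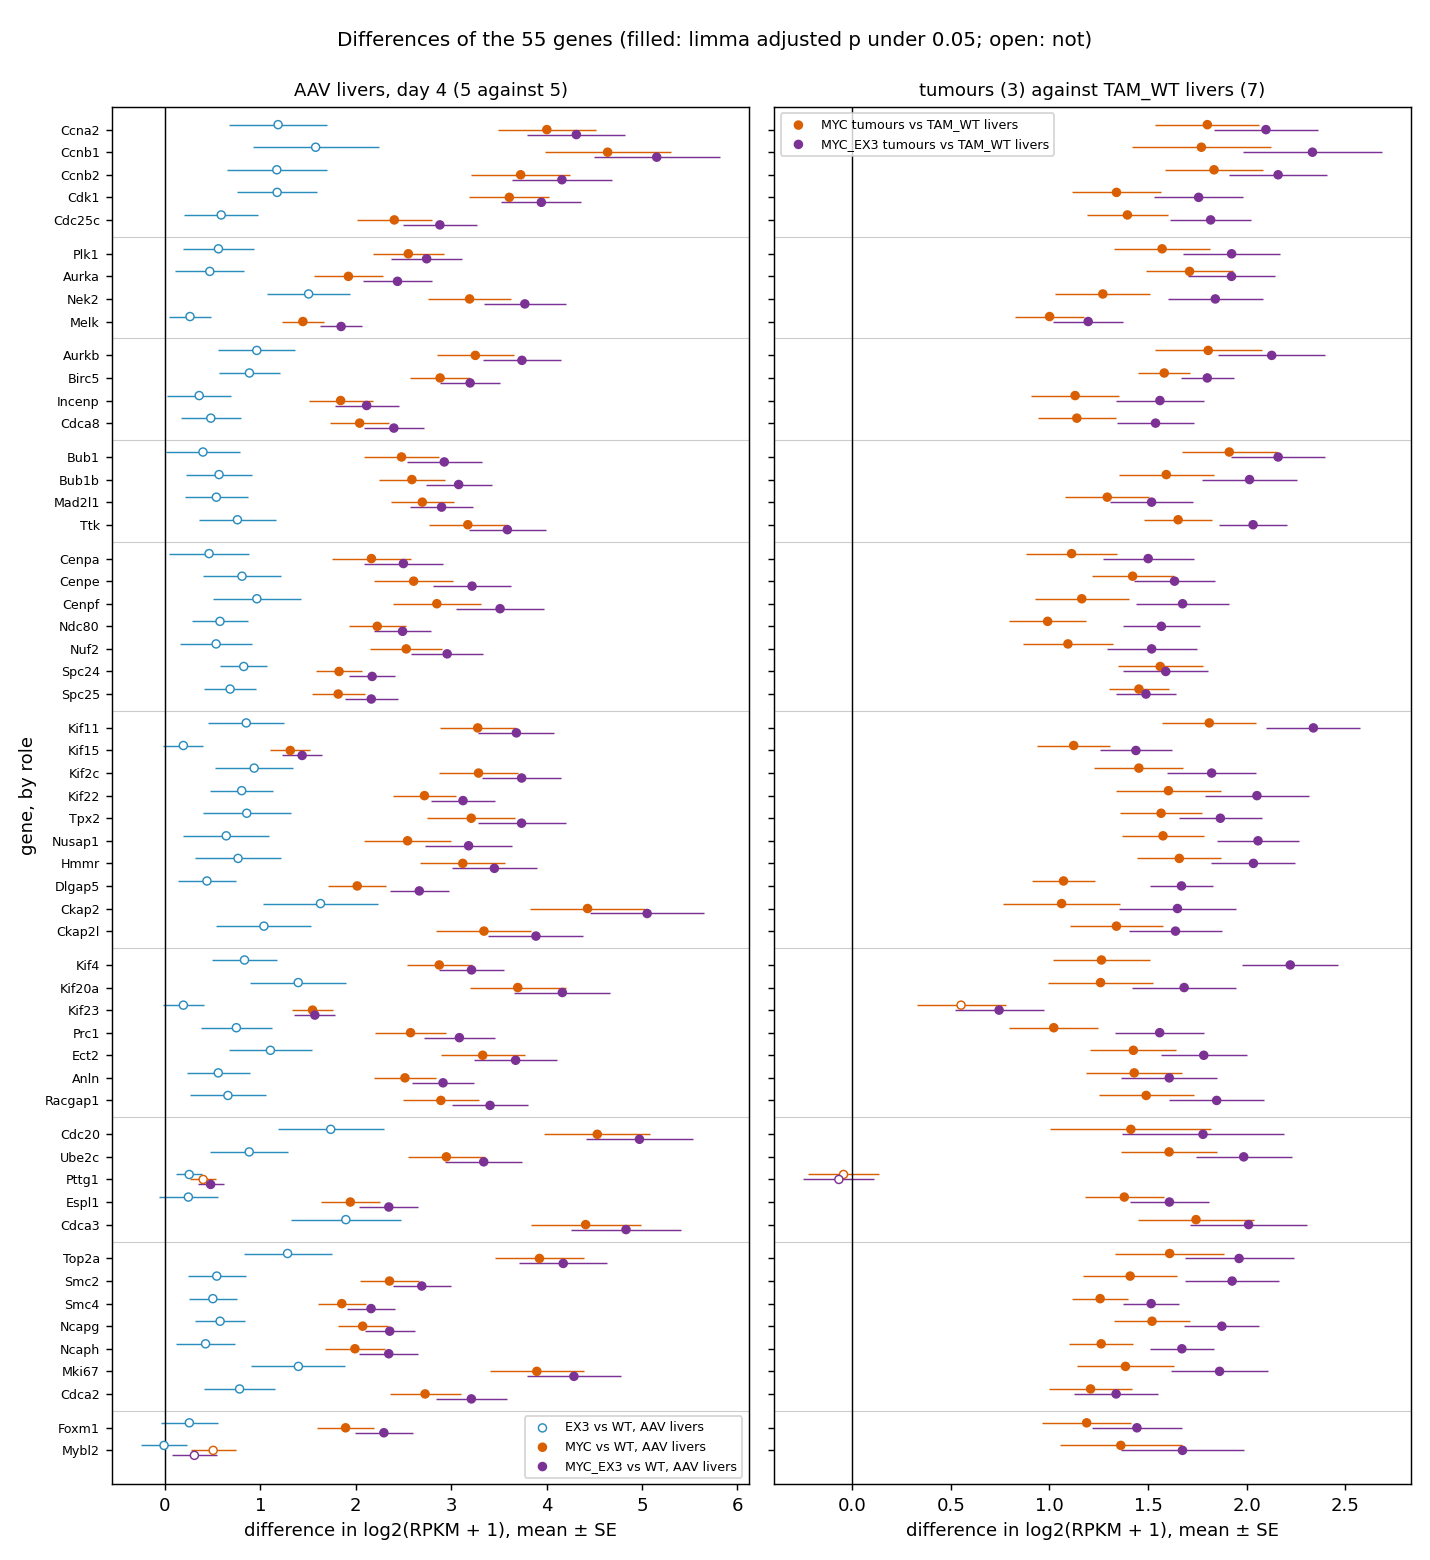
Differences of each of the 55 genes in log2(RPKM + 1), with bars of 1 standard error, for the day 4 livers on the left and the nodules on the right, in order of role. Filled points passed the limma adjusted p of 0.05; Pttg1 and Mybl2 lie nearest to 0 with MYC on the left, and Pttg1 lies at 0 on the right.

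The genes moved together from library to library. Over the 20 AAV livers the correlation of each gene with the median of the other genes had a median of 0.983 and exceeded 0.9 for 53 genes, a description in which groups and library depth are shared. The exceptions were Pttg1 at 0.750 and Mybl2 at 0.395. Within groups the median standard deviation of a gene (log2) was 0.24 in AAV_WT, 0.86 in AAV_EX3, 0.61 in AAV_MYC and 0.50 in AAV_MYC_EX3.

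The balance between these genes and DNA replication genes also shifted. The median gene of the set was divided by the median of 22 S phase genes, which include the MCM helicase subunits, in each library. The ratio was 0.294, 0.308, 0.27, 0.362 and 0.37 in AAV_WT livers, 1.1, 1.03, 0.881, 0.68 and 0.44 in AAV_MYC livers and 1.46, 1.03, 0.859, 0.615 and 0.915 in AAV_MYC_EX3 livers. All AAV_MYC livers were above all AAV_WT livers. In AAV_EX3 livers it was 0.332, 0.348, 1.1, 0.876 and 0.431, so that livers 3 and 4 had ratios like those of MYC livers at lower levels of both lists. AAV_MYC liver 5 had the lowest ratio of its group with S phase genes at 16.6 RPKM, inside the range of the other MYC livers.

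**Figure D3:**
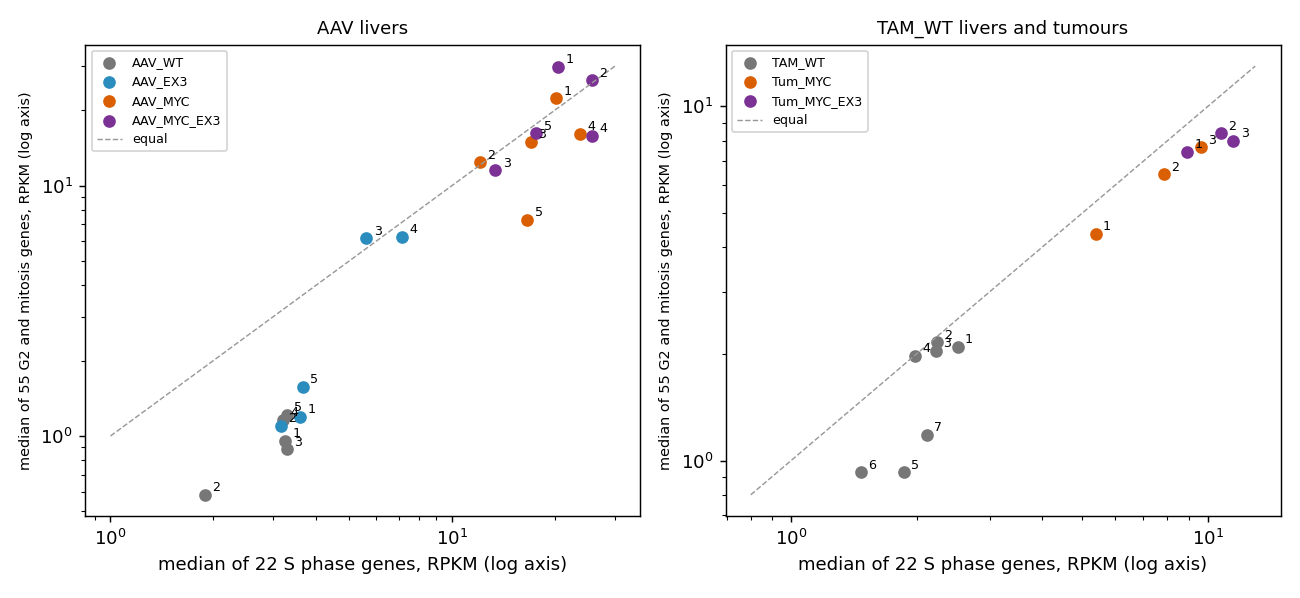
Median of the 55 G2 and mitosis genes against the median of 22 S phase genes, both in RPKM on log axes, with 1 point per library labelled by replicate and a dashed line at equal values. Wild-type livers lie below the line at low levels of both, MYC livers lie near it, and AAV_MYC liver 5 lies below the rest of its group.

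Other cell cycle genes, from lists set by function, rose alongside in AAV_MYC livers. Of 58 other G2 and mitosis genes 51 were called higher, with a median difference of 1.86. Of the 22 S phase genes 21 were, with a median of 1.87. Of all genes 10.6% were called higher and 2.88% lower. Among 11 subunits of the DREAM and MuvB complexes 6 were higher and 1 lower. The largest differences there were those of Tfdp1, the E2F partner DP1, at 1.68, and Rbl1, which encodes p107, at 0.99, while Rbl2, which encodes p130, the pocket protein of resting cells, fell by 0.55 (limma adjusted p = 0.02). Of 9 brakes on CDK1 and the G2 checkpoint 3 were higher: the kinase genes Chek1, at 2.37, Chek2, at 1.73, and Pkmyt1, which encodes the MYT1 inhibitor of CDK1, at 1.21. In AAV_MYC_EX3 against AAV_WT the counts were 52 of 58, 22 of 22, 6 of 11 and 3 of 9, against 11.2% of all genes. In AAV_EX3 against AAV_WT none of these genes was called, against 0.079% of all genes called higher.

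Few markers of cell types were called in the same livers, where 10.6% of all genes were called higher and 2.88% lower. In AAV_MYC against AAV_WT livers limma called 0 of 8 hepatocyte markers, 1 of 8 macrophage markers higher, 1 of 8 endothelial markers lower, 1 of 8 stellate and fibroblast markers in each direction and 0 of 8 neutrophil, 0 of 6 erythroid and 0 of 8 lymphocyte markers. Summed macrophage markers stood at 276 to 527 RPKM in AAV_WT and 336 to 551 in AAV_MYC livers. Summed erythroid markers stood at 33.1 to 162 and 44.5 to 103 RPKM. Neutrophil sums ran from 10.2 to 191 (median 28.6) in AAV_WT and 14.3 to 174 (median 67.4) in AAV_MYC. Stellate and fibroblast sums ran from 187 to 201 (median 195) and 132 to 205 (median 148). Cholangiocyte sums ran from 66.9 to 81.7 (median 71.8) and 46.6 to 104 (median 58.3). Hepatocyte markers lay near the top of the scale, where a change may not show. The part of these cells in the rise was not tested. No marker of these lists was at 0 in all livers of a group.

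In the second arm the set was higher in nodules of both genotypes than in TAM_WT livers. The median gene read 2.09, 2.16, 2.04, 1.98, 0.927, 0.926 and 1.18 RPKM in TAM_WT livers 1 to 7, 4.36, 6.44 and 7.66 in the Tum_MYC nodules and 7.45, 8.4 and 7.98 in the Tum_MYC_EX3 nodules. In Tum_MYC, 53 of the 55 genes were called higher, against 25% of all genes, and none lower, against 10.4%. The groups did not overlap in 52 genes, against 18.8%. In Tum_MYC_EX3, 54 genes were called higher, against 30.2%, and none lower, against 15.5%, and 54 did not overlap, against 28.1%. The median differences were 1.41 and 1.78 (log2), and the median ratios of means 3.82 and 4.98.

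**Figure D4:**
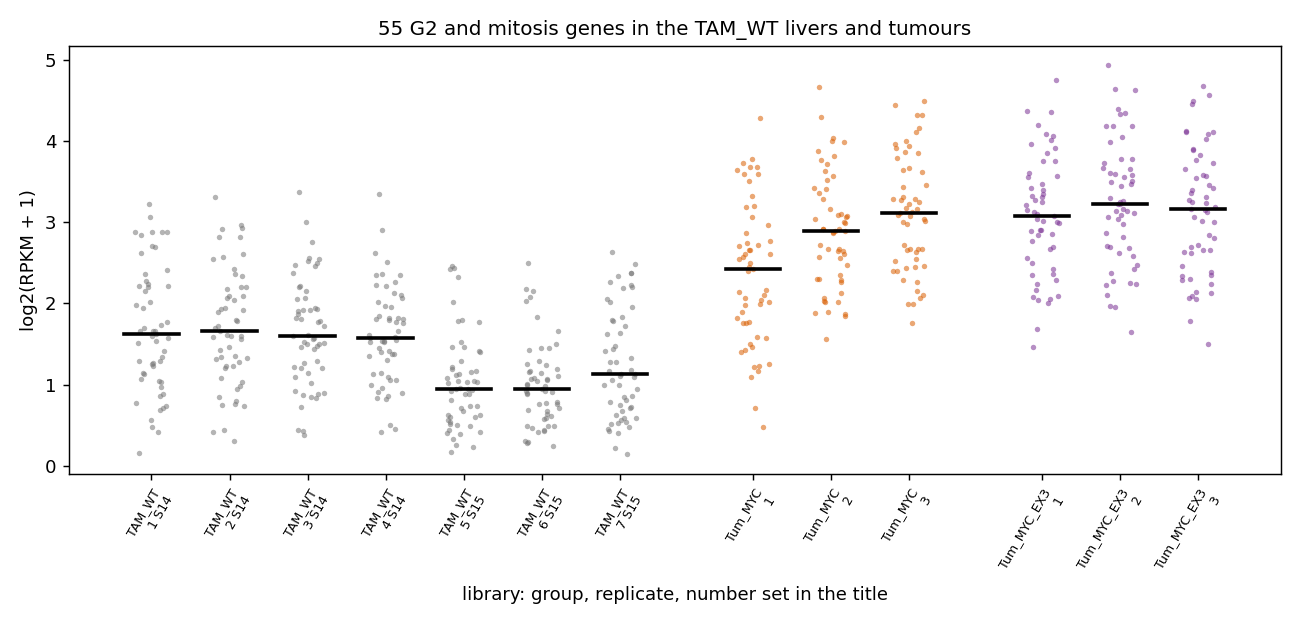
Each point is 1 of the 55 genes in 1 library of the second arm, in log2(RPKM + 1), and the black bar is the median gene. The title number set is given under the TAM_WT livers; the 4 livers numbered S14 lie above the 3 numbered S15, all 6 nodules lie above both, and Tum_MYC nodule 1 is the lowest nodule.

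All 5 CDK1 switch genes rose in both kinds of nodule. Ccnb1 ran from 1.29 to 6.62 RPKM in TAM_WT livers (median 4.13), and read 10.4, 15.5 and 19.1 RPKM in Tum_MYC and 19.5, 24.1 and 22.8 RPKM in Tum_MYC_EX3 nodules. Ccna2 ran from 1.7 to 5.1 RPKM in TAM_WT livers (median 4.12), and read 11.2, 13.7 and 16.9 RPKM in Tum_MYC and 15.7, 19.4 and 16.4 RPKM in Tum_MYC_EX3 nodules. Cdk1 ran from 1.23 to 3.45 RPKM in TAM_WT livers (median 2.49), and read 5.53, 7.5 and 8.74 RPKM in Tum_MYC and 8.69, 11.1 and 9.98 RPKM in Tum_MYC_EX3 nodules. In each of these the lowest nodule was Tum_MYC nodule 1. Cdc25c, the phosphatase gene, was 7.84 and 10.7 times as high as in TAM_WT.

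The kinases and passenger complex genes were higher throughout. Plk1 ran from 0.671 to 1.87 RPKM in TAM_WT livers (median 1.32), and read 3.03, 6.32 and 8.98 RPKM in Tum_MYC and 7.1, 8.37 and 7.07 RPKM in Tum_MYC_EX3 nodules. Aurka ran from 1.65 to 4.15 RPKM in TAM_WT livers (median 3.05), and read 8.16, 11.5 and 14.6 RPKM in Tum_MYC and 12.5, 12.8 and 13.9 RPKM in Tum_MYC_EX3 nodules. Aurkb ran from 1.06 to 3.36 RPKM in TAM_WT livers (median 2.71), and read 6.82, 9.64 and 13.7 RPKM in Tum_MYC and 11.2, 12.7 and 13.3 RPKM in Tum_MYC_EX3 nodules. Each of these kinase genes was above every TAM_WT liver in all 6 nodules. Birc5 ran from 1.02 to 1.96 RPKM in TAM_WT livers (median 1.67), and read 5.83, 6.56 and 7.75 RPKM in Tum_MYC and 7.27, 8.82 and 7.76 RPKM in Tum_MYC_EX3 nodules. Incenp ran from 1.44 to 2.9 RPKM in TAM_WT livers (median 1.89), and read 3.14, 6.44 and 8.37 RPKM in Tum_MYC and 7.45, 8.4 and 7.87 RPKM in Tum_MYC_EX3 nodules. Survivin (Birc5) rose 4.23-fold and 5.01-fold, and Incenp 2.9-fold and 3.83-fold.

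Checkpoint and kinetochore genes were all higher too. Bub1 ran from 0.186 to 0.792 RPKM in TAM_WT livers (median 0.606), and read 2.37, 5.61 and 7.05 RPKM in Tum_MYC and 4.88, 6.89 and 5.48 RPKM in Tum_MYC_EX3 nodules. Mad2l1 ran from 1.83 to 4.53 RPKM in TAM_WT livers (median 3.81), and read 7.4, 9.25 and 13.5 RPKM in Tum_MYC and 10.8, 12.3 and 11.7 RPKM in Tum_MYC_EX3 nodules. Bub1 had the largest difference of the set in Tum_MYC, at 1.91 (SE 0.24) with a limma adjusted p of 1.26e-04, ahead of the cyclin gene Ccnb2 at 1.83 (SE 0.25). Ndc80 ran from 0.32 to 0.934 RPKM in TAM_WT livers (median 0.652), and read 1.14, 2.61 and 2.97 RPKM in Tum_MYC and 3.15, 4.56 and 3.4 RPKM in Tum_MYC_EX3 nodules. Cenpf ran from 0.687 to 2.01 RPKM in TAM_WT livers (median 1.44), and read 2.37, 5.37 and 5.39 RPKM in Tum_MYC and 6.5, 7.41 and 5.29 RPKM in Tum_MYC_EX3 nodules. Ndc80 read higher in all 3 Tum_MYC_EX3 than in all 3 Tum_MYC nodules.

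Among spindle and cytokinesis genes all were called in Tum_MYC_EX3, and all but Kif23 in Tum_MYC. Kif11 ran from 1.07 to 2.78 RPKM in TAM_WT livers (median 2.25), and read 5.71, 10.5 and 11.3 RPKM in Tum_MYC and 12.5, 14.9 and 12.3 RPKM in Tum_MYC_EX3 nodules. Tpx2 ran from 0.69 to 2.06 RPKM in TAM_WT livers (median 1.88), and read 4.83, 6.53 and 7.43 RPKM in Tum_MYC and 7.59, 7.96 and 7.98 RPKM in Tum_MYC_EX3 nodules. Kif11 at 2.34 (SE 0.24) and Ccnb1 at 2.33 (SE 0.35) had the largest differences of Tum_MYC_EX3 from TAM_WT. Ckap2 ran from 0.892 to 4.16 RPKM in TAM_WT livers (median 2.88), and read 4.46, 6.41 and 7.54 RPKM in Tum_MYC and 9.02, 10.4 and 9.29 RPKM in Tum_MYC_EX3 nodules. Kif20a ran from 1.01 to 3.64 RPKM in TAM_WT livers (median 2.53), and read 5.31, 7.42 and 8.09 RPKM in Tum_MYC and 8.92, 10.8 and 8.95 RPKM in Tum_MYC_EX3 nodules. Racgap1 ran from 0.978 to 3.12 RPKM in TAM_WT livers (median 2.17), and read 5.31, 6.59 and 10.0 RPKM in Tum_MYC and 8.55, 9.94 and 9.59 RPKM in Tum_MYC_EX3 nodules. The cytokinesis motor gene Kif23 moved least, at 0.55 (SE 0.23), limma adjusted p = 0.0771, in Tum_MYC, where it was not called, and 0.74 (SE 0.23), adjusted p = 0.0169, in Tum_MYC_EX3.

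Mitotic exit again divided into Cdc20 and Espl1 on the one side and Pttg1 on the other. Cdc20 ran from 1.21 to 8.39 RPKM in TAM_WT livers (median 4.19), and read 9.04, 10.9 and 15.1 RPKM in Tum_MYC and 13.5, 15.6 and 16 RPKM in Tum_MYC_EX3 nodules. Espl1 ran from 0.324 to 0.984 RPKM in TAM_WT livers (median 0.397), and read 1.69, 3.37 and 4.5 RPKM in Tum_MYC and 3.5, 3.74 and 3.88 RPKM in Tum_MYC_EX3 nodules. Pttg1 ran from 3.15 to 5.53 RPKM in TAM_WT livers (median 3.19), and read 4.67, 2.68 and 3.3 RPKM in Tum_MYC and 3.01, 2.89 and 4.49 RPKM in Tum_MYC_EX3 nodules. Pttg1 overlapped between all groups, with differences of -0.04 (SE 0.18) and -0.07 (SE 0.18), neither called. Separase (Espl1) rose 5.68-fold and 6.61-fold.

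Chromosome genes rose in both kinds of nodule. Mki67 ran from 4.53 to 9.37 RPKM in TAM_WT livers (median 6.35), and read 12.7, 24.4 and 21.7 RPKM in Tum_MYC and 26.1, 29.6 and 24.6 RPKM in Tum_MYC_EX3 nodules. Top2a ran from 2.89 to 7.02 RPKM in TAM_WT livers (median 6.4), and read 11.9, 18.7 and 20.9 RPKM in Tum_MYC and 19.7, 23.8 and 21.5 RPKM in Tum_MYC_EX3 nodules. Mki67 and Top2a were the highest of the 55 genes in TAM_WT livers by group mean. Smc2 ran from 0.945 to 2.34 RPKM in TAM_WT livers (median 1.98), and read 3.48, 7.01 and 8.51 RPKM in Tum_MYC and 8.29, 10.3 and 8.49 RPKM in Tum_MYC_EX3 nodules. Ncapg ran from 0.868 to 1.72 RPKM in TAM_WT livers (median 1.52), and read 3.43, 6.4 and 7.66 RPKM in Tum_MYC and 7.01, 7.8 and 7.39 RPKM in Tum_MYC_EX3 nodules. Both condensin genes were above every TAM_WT liver in all 6 nodules.

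The transcription factor genes both rose in the nodules. Foxm1 ran from 0.508 to 1.47 RPKM in TAM_WT livers (median 0.813), and read 1.75, 3.94 and 4.85 RPKM in Tum_MYC and 4.1, 4.17 and 4.1 RPKM in Tum_MYC_EX3 nodules. Mybl2 ran from 0.106 to 0.363 RPKM in TAM_WT livers (median 0.231), and read 0.396, 3.04 and 4.47 RPKM in Tum_MYC and 2.22, 3.3 and 3.26 RPKM in Tum_MYC_EX3 nodules. Mybl2 had the highest ratios of group means of the set, 11.7 and 13.1, with differences of 1.36 (SE 0.31), limma adjusted p = 0.00502, and 1.67 (SE 0.31), adjusted p = 8.45e-04. Tum_MYC nodule 1 stood close to the TAM_WT range for this gene. Against the S15 livers alone the adjusted p in Tum_MYC was 0.0542. In the day 4 livers the same gene differed by 0.51; the difference between the arms was not tested because their scales differ.

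Between the nodules the set was again a little higher with Ex3. The median difference of Tum_MYC_EX3 from Tum_MYC was 0.36 (log2) and the median ratio of means 1.28. None of the 55 genes was called higher, against 1.43% of all genes, and 3 had an unadjusted p under 0.05. In 16 genes all Tum_MYC_EX3 nodules were above all Tum_MYC nodules, against 7.33% of all genes. Kif4, a chromosome-bound motor gene, had the largest difference at 0.96 (95% interval 0.33 to 1.58, limma adjusted p = 0.108). It read 2, 4.88 and 4.29 RPKM in Tum_MYC and 6.47, 7.49 and 9.75 RPKM in Tum_MYC_EX3 nodules. Dlgap5 followed at 0.60 (0.19 to 1.01), and Pttg1 at -0.02 and Spc24 at 0.03 were the smallest. Tum_MYC nodule 1 was the lowest of its group in 52 genes, and the 3 Tum_MYC_EX3 nodules differed little, with a median standard deviation of 0.12 (log2) against 0.41 in Tum_MYC.

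The 7 TAM_WT livers were not alike. The 4 livers numbered S14 were above the 3 numbered S15 without overlap in 42 of the 55 genes, against 6.82% of all genes, and the median ratio of means was 2.08. A limma comparison added after this was seen called 3 genes higher in S14, against 0.0555% of all genes. Top2a differed by 0.94 (SE 0.07), adjusted p = 0.00618, and Aurkb by 0.88 (SE 0.10), adjusted p = 0.0374, while Pttg1 differed by 0.04. Kif4 was the third. Leaving out liver 7 took the count to 0, and leaving out liver 2, 3, 5 or 6 took it to 1. The rise in nodules did not rest on either set: against S14 livers alone 53 genes were called in both kinds of nodule, and against S15 livers alone 53 in Tum_MYC and 54 in Tum_MYC_EX3. The ratio to S phase genes was 0.833, 0.964, 0.916, 0.999, 0.498, 0.63 and 0.559 in livers 1 to 7, 0.811, 0.821 and 0.795 in Tum_MYC and 0.836, 0.78 and 0.693 in Tum_MYC_EX3 nodules. The 3 S15 livers had the lowest ratios.

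Over the 13 libraries of this arm the correlation of each gene with the median of the other genes had a median of 0.983. It exceeded 0.9 for 52 genes, and was 0.848 for Kif23, 0.893 for Spc24 and -0.17 for Pttg1. The other lists rose here too. In Tum_MYC, 52 of 58 other G2 and mitosis genes and 21 of 22 S phase genes were called higher. There 7 of 11 DREAM and MuvB subunits were higher and 1 lower, and 6 of 9 brakes were higher. Of all genes 25% were called higher and 10.4% lower. Rbl2 differed by -0.50 and Tfdp1 by 1.22. In Tum_MYC_EX3 the counts higher were 56, 22, 8 and 6, against 30.2% of all genes. There 1 of the 58 was lower, Fam64a, at -0.63 (limma adjusted p = 0.0268), against 15.5% of all genes. The brake with the largest difference in Tum_MYC_EX3 was Gadd45b, a stress response gene, at 2.57, ahead of Chek1 at 1.64.

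Other cell types moved with the nodules. Of 8 neutrophil markers 3 were called higher in Tum_MYC and 8 in Tum_MYC_EX3, against 25% and 30.2% of all genes. The 3 of 8 lie near the share of all genes. Neutrophil sums were 10.6 to 34.5 RPKM in TAM_WT, 11.2 to 143 in Tum_MYC and 140 to 191 in Tum_MYC_EX3. Of 6 erythroid markers 0 and 6 were higher, with sums of 14 to 31.8, 11.1 to 73.1 and 69 to 88.6 RPKM. Macrophage markers were lower in 6 of 8 in both, at 119 to 162, 45.5 to 123 and 56.8 to 73.6 RPKM. Endothelial markers were lower in 5 and 6 of 8, at 45.1 to 72.3, 26.9 to 40.3 and 26.6 to 32.7 RPKM. Of all genes 10.4% and 15.5% were called lower. None of the 8 hepatocyte markers was called, but a change may not show at the top of the scale. Albumin read 40.8 to 54.5 RPKM in TAM_WT, 35.7 to 50.8 in Tum_MYC and 33.2 to 40.3 in Tum_MYC_EX3. The highest gene of each library stood at 42.9 to 67.5 RPKM. The part of these cells in the rise of the 55 genes was not tested.

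The authors' deposited table gave like counts. The authors' deposited table called 53 of the 55 genes higher in MYC against WT on day 4, against 12.5% of all genes with an adjusted p, and 53 in MYC tumours against WT, against 24.4%. In the authors' deposited table the exceptions were Pttg1 and Mybl2 on day 4, and Pttg1 and Kif23 in the tumours. The authors' deposited table called 1 gene for Ex3 against WT, Cdca2, a chromosome protein gene, against 0.656% of all genes, and 1 for MYC with Ex3 against MYC in tumours, Nek2, against 1.56%.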

How the data were processed

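RNA of 33 libraries was sequenced. The deposited values are RPKM, 1 column per library, made by the authors from reads aligned to mm9; per the submitters' processing notes the tools were TopHat2 2.0.8, SAMtools, featureCounts 1.4.5-p1 and DESeq2, with their order not given in the sources used here. The authors' deposited table also holds log2 fold changes and adjusted p-values, which served only as comparison. It has 0 columns of samples outside the series.

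Libraries were grouped by title, genotype and treatment labels, and replicate numbers follow the order of the records. Genes at 0 in all libraries of a fit were left out, which kept all 55 members, and log2(RPKM + 1) was fitted with limma 3.58.1 in R 4.3.3 with an empirical Bayes trend, two-sided, for the 20 AAV livers together (20263 genes) and for the 13 libraries of the second arm together (18785 genes). P-values were adjusted by Benjamini-Hochberg within each comparison and called at 0.05. The fit was tested on simulated data. Because the values of 1 gene are whole multiples of 1 read (within 0.0001), reads in genes were recovered from them and used only to state depth. Promoter letters came from RefSeq GRCm38.p6, which is not the build of the files, and no coordinate was converted.

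The genes, the lists and the panel of 25 genes given in every library were chosen with earlier results of these data known. Beside the panel, the 2 largest and 2 smallest differences of each comparison and every gene called lower were named. No 2 libraries held identical values. Alternatives tried were a pseudocount of 0.1, filters at 1 and 5 RPKM in 3 libraries, median ratio rescaling, a sex covariate, fits with only the groups of a comparison, library weights, a keratin term, keratin-free and keratin-bearing livers, S14 or S15 livers only, and leaving out each library. The split by sex, the fit without AAV_EX3 livers 3 and 4, and the comparison of S14 with S15 livers were added after the data were seen.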

Additional observations from a re-analysis of the deposited data

Results flagged for a closer look

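Single libraries stood apart from the rest of their group in 4 of 130 sets of values examined, which were the 25 genes given in every library and the median gene, each in every group of 4 to 10 libraries. A library was taken as apart where its gap to the nearest other library was large against the range of the group, which chance gives in about 1 of 20 sets, or 6.5 of the 130. The 4 found are fewer than that. In AAV_MYC, liver 5 was apart for Ckap2, at 12.8 RPKM, and for Kif20a, at 8.11 RPKM, both the lowest of their group. In AAV_WT, liver 2 was apart for Bub1, at 0.0463 RPKM, and for Kif20a, at 0.287 RPKM, again the lowest.

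The Ex3 effect on day 4 in females minus that in males passed the threshold of the limma interaction term for Ccnb1, at 4.03 on the log2(RPKM + 1) scale, for Ccna2, at 3.07, for Cdk1, at 2.75, and for Ckap2, at 3.68. It is no test of sex, since the females are AAV_EX3 livers 3 and 4, which were seen to be high before the contrast was made. The number of genes passing fell to 0 on leaving out either of them, AAV_EX3 liver 1, or AAV_WT liver 2 or 3. Sex and the choice of these animals cannot be told apart within AAV_EX3.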

How the results depend on the processing

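The number of the 55 genes called stayed within 1.5 times its main value under the alternatives run for MYC against WT, MYC with Ex3 against WT, MYC with Ex3 against MYC, the interaction and the 3 nodule comparisons. With Ex3 against WT, library weights gave 1 gene in place of 0. With both alleles against Ex3, keratin-bearing livers gave 24 in place of 53, and Ccnb1 lost its call there (limma adjusted p = 0.133). For S14 against S15 livers the count was 13 with a pseudocount of 0.1, 24 with a filter at 1 RPKM, 8 with a sex covariate, and 0 to 2 leaving out each library. For the contrast of the sexes, which tests nothing about sex, it was 14 with only the groups compared and 0 to 6 leaving out each library; Ccnb1 lost its call with a pseudocount of 0.1 (adjusted p = 0.0606) and with a keratin term (0.0648). No called value changed its sign under an alternative. Leaving out each library gave 53 to 54 genes for MYC against WT, 53 to 54 for both alleles against WT, 51 to 54 for MYC nodules and 53 to 54 for MYC_EX3 nodules. A filter at 5 RPKM left 52 of the 55 genes in the AAV livers and 41 in the second arm. Keratin-bearing fits were not run for comparisons with AAV_MYC, which has 1 such liver. No paired analysis was possible because the labels number no replicates. Depth limits the lowest genes, Cdc25c above all, in wild-type livers.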

Other observations

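Pttg1 was the gene of the set with the highest mean in AAV_WT livers and was among the 2 with the smallest difference in MYC and in both alleles against WT and in both kinds of nodule, while Espl1, whose product it restrains, rose in all 4. Among AAV_MYC_EX3 livers the spread was wide: for Espl1, livers 1 and 2 stood at 11.0 and 10.6 RPKM and livers 3, 4 and 5 at 2.39, 4.61 and 2.89 RPKM. The same livers 1 and 2 were the highest of the group for Foxm1, at 9.69 and 10.3 RPKM, against 2.32, 5.21 and 3.71 RPKM. Livers 1 and 2 were also the only keratin-free livers of this group, with keratin sums of 0.0695 and 0.260 RPKM against 23.8, 3.95 and 8.44 in livers 3, 4 and 5, and the part of this in the spread was not tested. Ccnd1, the cyclin D1 gene that acts in G1, read 67.8 and 56.8 RPKM in AAV_EX3 livers 3 and 4, above the AAV_WT range of 17.0 to 50.2 RPKM; it was looked up after the split of the AAV_EX3 livers was seen.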
